A study of Mus musculus with 19 samples.

Results

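A set of 9 genes that act in or mark the GABAergic neurons of the cerebellum were followed across mouse progenitors and medulloblastoma-model tumors: Ptf1a, Tfap2a, Tfap2b, Lhx1, Lhx5, Pax2, Foxp2, Pcp2 and Gad1. They were picked by symbol from the annotation of the array's probe sets, and 8 of the 9 listed genes were measured, out of 18193 genes with a probe set of their own. Pax2 was not analysed here. Where a gene had several probe sets, the one brightest on average across the 19 arrays stood for it, and the others served as a check.

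The study compared kinds of progenitor in the developing cerebellum and the tumors that form from them, on 19 Affymetrix Mouse430+2 arrays in 5 groups. The groups were 4 arrays of NEP tumor (Nestin-CreERT2/Ptch1C/C mice), 4 arrays of GNP tumor (Math1-CreERT2/Ptch1C/C mice), 4 arrays of NEPs (Nestin-positive neuronal progenitors), 4 arrays of GNPs (Math1-positive neuronal progenitors) and 3 arrays of NSCs (cerebellar progenitors sorted as CD133-positive and Lin-negative). All carried the C57BL/6 strain label and came from cerebellum with neither culture nor treatment recorded before RNA extraction. In the tumor mice, a tamoxifen-inducible Cre is driven by the Nestin or the Math1 promoter, so which cells lose Ptch1, the receptor that restrains Sonic hedgehog signaling, depends on the promoter. The labels give neither age, sex, the time of Cre induction nor whether animals were pooled, and they do not name separate animals behind the arrays of a group. A p-value here therefore measures the spread between arrays, which may be technical.

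Cerebellar neurons come from separate germinal zones. In the mouse, Ptf1a, a basic helix-loop-helix transcription factor of the ventricular zone, is required for Purkinje cells and GABAergic interneurons, while Atoh1 (Math1) in the rhombic lip is required for granule neurons and other glutamatergic cells. Tfap2a and Tfap2b encode AP-2 transcription factors found in the GABAergic lineage, Lhx1 and Lhx5 encode LIM homeodomain factors needed for Purkinje cell differentiation, Foxp2 and Pcp2 mark Purkinje cells, and Gad1 encodes an enzyme that makes GABA.

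Values are log2 signals, and differences between groups are log2 differences from a linear model fitted with limma over 12148 genes, called at a Benjamini-Hochberg adjusted p below 0.05 over all of them. Signals of different genes are not compared, since probe sets bind with unequal strength. The median of an array lay between 2.44 and 2.57, and a group mean under it is called dim; the fold behind a difference from a dim group is one of array signal. By the numbers in their titles, the NEPs and GNPs form one series of arrays, and the NSCs and tumors a second. Poly-A controls, RNAs spiked in before labelling, averaged 6.83 ± 0.29 (SD, n = 11) in the NSC and tumor series and 8.94 ± 0.23 (n = 8) in the NEP and GNP series. Tumor against progenitor, and NEP or GNP against NSC, therefore cannot be told apart from the title series, whereas NEP against GNP, tumor against tumor and tumor against NSC lie within a series.

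The labels were checked on the genes behind them. Nes, the gene of the Nestin label, averaged 5.87 ± 0.19 in NEPs, against 3.49 ± 0.35 in GNPs (SD, n = 4 each). Atoh1 averaged 3.95 ± 1.6 in NEPs, against 8.85 ± 0.09 in GNPs and 8.93 ± 0.01 in NSCs (n = 3), so the NSC arrays carried the gene of the Math1 label at the GNP level. Prom1, which encodes CD133, averaged 8.61 ± 0.30 in NEPs, against 8.08 ± 0.11 in NSCs. Ptch1 ranged from 11.39 to 11.59 in NEP tumors and from 11.18 to 11.24 in GNP tumors, against 10.27 to 10.90 in NEPs, 10.17 to 10.38 in GNPs and 10.24 to 10.29 in NSCs. Whether its probe set lies inside the deleted part of the gene is not known here, so Ptch1 checks no label.

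In NEPs, 6 of the 8 measured genes were called higher than in GNPs (Ptf1a, Tfap2b, Tfap2a, Lhx5, Foxp2 and Pcp2) and Lhx1 was called lower. Across the genome, 29.6% of the tested genes were called higher and 39.9% lower in that comparison, so being called at all is common here and the sizes carry more information than the count. The median difference over the 8 genes was 1.91, against -0.114 over all genes tested. Against NSCs, NEPs had 4 genes higher (Tfap2b, Lhx5, Tfap2a and Ptf1a) and 3 lower (Lhx1, Foxp2 and Pcp2), beside 30.9% of all genes called higher and 27.6% lower. GNPs against NSCs had 5 genes lower (Ptf1a, Tfap2b, Tfap2a, Foxp2 and Pcp2) and 0 higher, beside 13.1% and 23.2% of all genes. Gad1 was not called in any of these 3 comparisons in the fit over all groups.

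Of the 8 genes, 1 was called between NEP tumor and GNP tumor, Pcp2, higher, while 15.5% of all genes were called higher and 8.10% lower. NEP tumors against NEPs had 4 genes lower (Ptf1a, Tfap2b, Tfap2a and Lhx5) and 3 higher (Foxp2, Lhx1 and Pcp2), beside 32.6% and 36.2% of all genes. GNP tumors against GNPs had 4 lower (Tfap2a, Gad1, Lhx5 and Tfap2b) and Foxp2 higher, beside 31.4% and 18.5%. The difference between tumors was unequal to that between progenitors for 6 genes, 5 of them with a lower and 1 with a higher tumor difference, against 25.2% and 36.7% of all genes.

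Within the series that holds tumors and NSCs together, NEP tumors had 4 genes lower than NSCs (Ptf1a, Tfap2b, Tfap2a and Lhx5) and Foxp2 higher, beside 20.4% and 23.9% of all genes. GNP tumors had the same 4 lower, Pcp2 lower as well, and Foxp2 higher, beside 25.4% and 22.2%. The tumor comparisons with NSCs share the 3 NSC arrays, and the comparisons with NEPs or GNPs share those arrays too. Ptf1a passed the filter on dim genes through its 7 NEP and NSC arrays alone, and Tfap2b and Lhx5 through the 11 NEP, GNP and NSC arrays. Pcp2 passed on 13 arrays, with 0 GNP and 2 GNP tumor arrays among them. Tfap2a and Gad1 passed on 14 arrays each, with 0 GNP tumor arrays among them, and Lhx1 and Foxp2 on all 19.

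**Figure D1:**
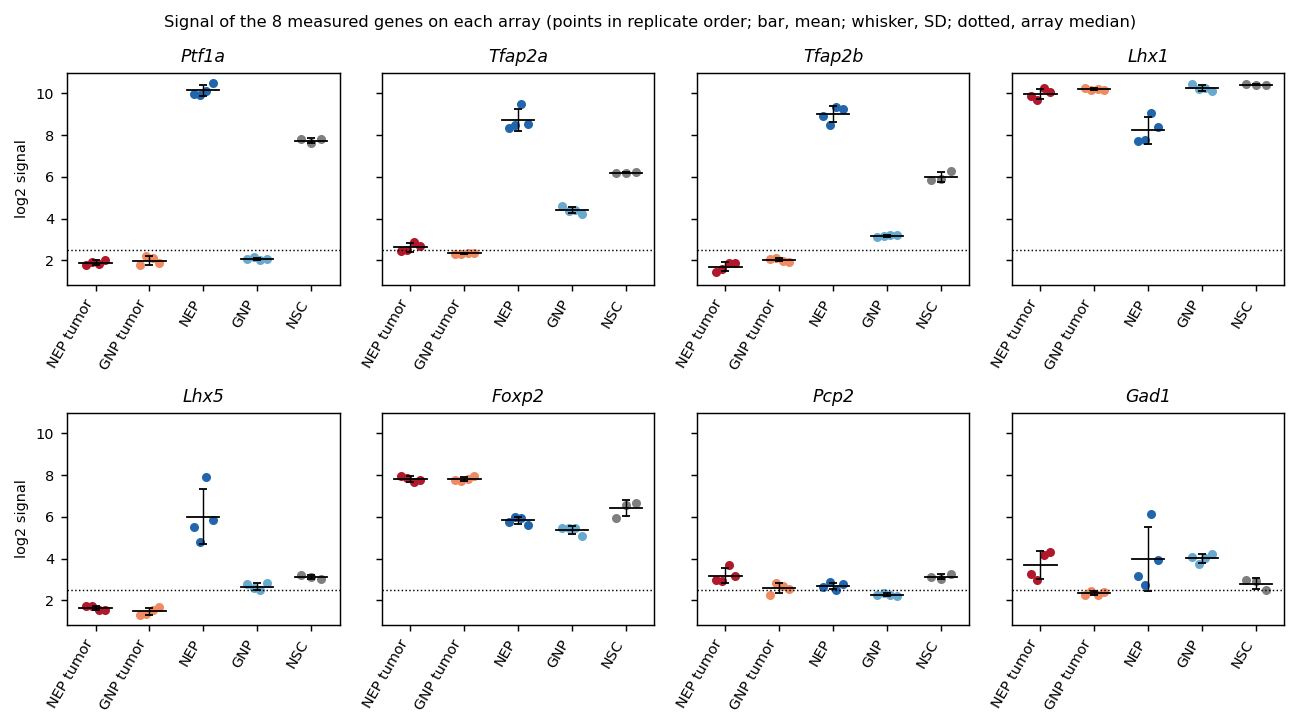
Log2 signal (vertical axis) of each of the 8 measured genes on all 19 arrays, by group from left to right NEP tumor, GNP tumor, NEP, GNP and NSC. Points are arrays, bars means, whiskers the SD and the dotted line the average array median. Ptf1a is dim in both tumor groups, averages 10.15 in NEPs and is dim in GNPs, while Lhx1 is lowest in NEPs and Foxp2 is highest in the tumors.

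The Ptf1a gene lies at chr2:19445663-19447501 (RefSeq, GRCm38.p6, as for all gene positions here). It read 9.99, 9.94, 10.14 and 10.51 in the NEPs, against 2.05, 2.15, 2.04 and 2.05 in the GNPs and 7.80, 7.61 and 7.83 in the NSCs. The 3 groups did not overlap, and the GNPs were dim on every array. The difference between NEPs and GNPs was 8.07 (SE 0.12, limma adjusted p = 9.01e-18), which ranked 5 in size among the 12148 genes. NEPs were above NSCs by 2.40 (SE 0.13, limma adjusted p = 1.15e-10), and GNPs were below them by a log2 difference of -5.67.

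In the NEP tumors Ptf1a read 1.76, 1.94, 1.81 and 2.02, against 1.78, 2.21, 2.11 and 1.88 in the GNP tumors. The tumor groups overlapped, stayed under the array median throughout and had a difference of -0.11 (95% interval -0.36 to 0.14, limma adjusted p = 0.55). Against NEPs, the NEP tumors were lower by a log2 difference of -8.26 (SE 0.12), which ranked 1 in size among the genes tested. Tumors and NSCs, which share a title series, differed by -5.86 for NEP tumors and -5.75 for GNP tumors (SE 0.13 each), so the low tumor signal also held within a series. These are bulk RNA samples, in which fewer cells of a type and less RNA per cell cannot be told apart.

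**Figure D2:**
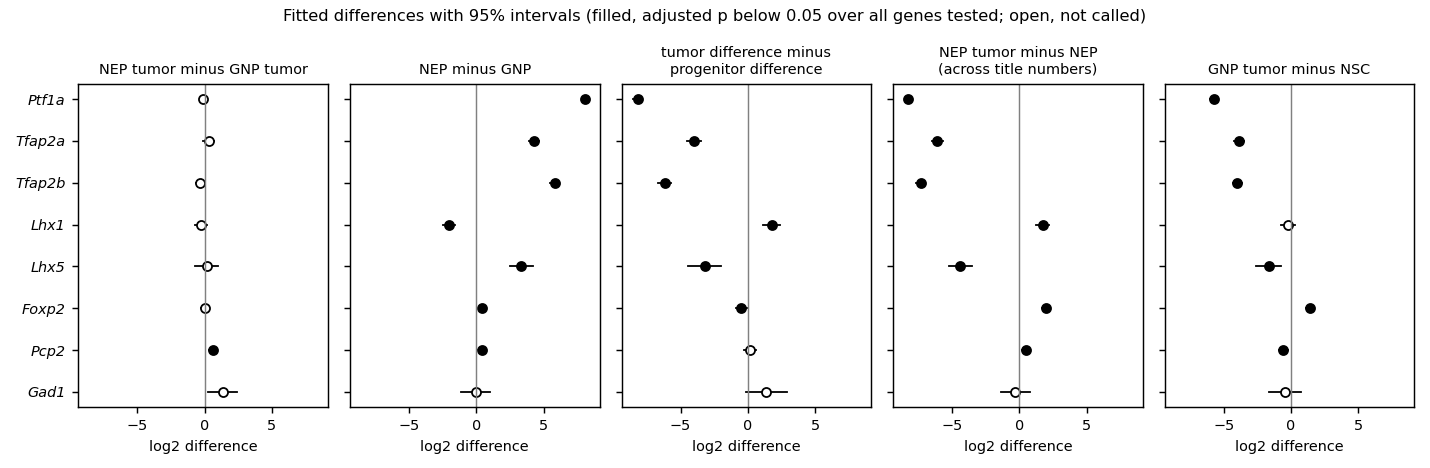
Fitted log2 differences (horizontal axis) with 95% intervals for the 8 genes (vertical axis) in 5 comparisons, each named as first group minus second above its panel. Filled points were called and open points were not. The NEP minus GNP panel runs from -2.02 for Lhx1 to 8.07 for Ptf1a, while the NEP tumor minus GNP tumor panel has 1 filled point, Pcp2 at 0.62.

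The AP-2 genes followed Ptf1a in the order of the progenitor groups. Tfap2a (chr13:40713802-40738238), whose product binds DNA as an AP-2 dimer, read 8.34, 8.50, 9.48 and 8.55 in the NEPs, against 4.62, 4.38, 4.40 and 4.24 in the GNPs and 6.20, 6.17 and 6.22 in the NSCs. No array of one group reached into another, and NEP array 3 was the highest. NEPs were above GNPs by 4.31 (SE 0.18, limma adjusted p = 1.26e-12) and above NSCs by 2.52 (SE 0.19). Unlike Ptf1a, Tfap2a stood above the array median on all 4 GNP arrays.

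Tfap2b (chr1:19208908-19238845), the close relative of Tfap2a, read 8.94, 8.50, 9.33 and 9.28 in the NEPs, against 3.14, 3.15, 3.20 and 3.22 in the GNPs and 5.86, 5.90 and 6.29 in the NSCs. Again the 3 groups were separate. The difference between NEPs and GNPs was 5.84 (SE 0.15, limma adjusted p = 3.33e-15), and NEPs were above NSCs by 3.00 (SE 0.17).

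In NEP tumors Tfap2a read 2.43, 2.50, 2.88 and 2.70, against 2.31, 2.33, 2.35 and 2.35 in GNP tumors. Tfap2b read 1.43, 1.58, 1.87 and 1.86 in NEP tumors, against 2.08, 2.11, 1.99 and 1.94 in GNP tumors. For each gene the tumor groups did not overlap, by small gaps and in opposite directions, but neither difference was called (0.29, limma adjusted p = 0.265 for Tfap2a and -0.34, 0.117 for Tfap2b). On the other bright probe set of Tfap2a the tumor groups overlapped and the difference was -0.20, so its direction turned with the probe set. With the main probe sets, both differences were called when the fit held the 2 tumor groups alone (limma adjusted p = 0.0484 and 0.0367).

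Tumors were below the progenitors for both genes, far below for NEP tumors against NEPs and by less for GNP tumors against GNPs. NEP tumors minus NEPs gave -6.09 for Tfap2a and -7.33 for Tfap2b, and the Tfap2b value ranked 4 in size among all genes tested. GNP tumors minus GNPs gave -2.08 for Tfap2a and -1.15 for Tfap2b. Against NSCs in their own title series, Tfap2a differed by -3.57 in NEP tumors and -3.87 in GNP tumors, and Tfap2b by -4.33 in NEP tumors and -3.99 in GNP tumors.

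The second probe set of Tfap2b had the same order, with means of 8.53 ± 0.20 in NEPs, 2.60 ± 0.08 in GNPs and 5.89 ± 0.37 in NSCs. Of the 3 probe sets of Tfap2a, all were called higher in NEPs than in GNPs and than in NSCs. One of them was weak, at 2.73 ± 0.62 in NEPs and 1.76 ± 0.14 in GNPs, a difference of 0.97, and there GNPs against NSCs was not called. Nor was GNP tumors against GNPs called on it (-0.19, limma adjusted p = 0.52). Against NSCs, neither NEP tumors (-0.38, limma adjusted p = 0.222) nor GNP tumors (-0.48, 0.107) were called on it. On the other bright probe set, GNP tumors minus GNPs was -0.88.

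The promoters of Ptf1a, Tfap2b and Lhx1 are shown because Ptf1a and Tfap2b had the largest higher signals in NEPs against GNPs among the measured genes and Lhx1 was the one called lower. The trimeric complex that contains Ptf1a protein binds an E-box next to a TC-box, so each RefSeq window (GRCm38.p6, 250 bases before to 50 after a start) was searched on both strands for the E-box CANNTG and the TC-box TTCCC. Capitals mark the matches, and none of them overlapped another. The windows are Ptf1a at chr2:19445413-19445712 on the plus strand, Tfap2b at chr1:19211804-19212103 on the plus strand and Lhx1 at chr11:84525485-84525784 on the minus strand. The Ptf1a and Lhx1 windows span the outer start of the gene position given here, and the Tfap2b window lies inside that position, at a RefSeq transcript start further in.
Ptf1a: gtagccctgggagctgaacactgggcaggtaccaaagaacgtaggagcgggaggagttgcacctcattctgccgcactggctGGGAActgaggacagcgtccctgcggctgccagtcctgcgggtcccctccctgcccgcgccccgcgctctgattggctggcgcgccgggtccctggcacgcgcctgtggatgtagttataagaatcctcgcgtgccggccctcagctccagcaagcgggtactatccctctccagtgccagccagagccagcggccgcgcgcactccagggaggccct
Tfap2b: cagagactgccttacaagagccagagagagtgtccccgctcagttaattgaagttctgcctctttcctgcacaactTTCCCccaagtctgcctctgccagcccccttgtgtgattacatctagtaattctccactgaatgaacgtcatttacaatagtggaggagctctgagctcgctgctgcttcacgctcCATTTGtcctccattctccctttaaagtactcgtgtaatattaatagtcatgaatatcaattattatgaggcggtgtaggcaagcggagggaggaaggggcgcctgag
Lhx1: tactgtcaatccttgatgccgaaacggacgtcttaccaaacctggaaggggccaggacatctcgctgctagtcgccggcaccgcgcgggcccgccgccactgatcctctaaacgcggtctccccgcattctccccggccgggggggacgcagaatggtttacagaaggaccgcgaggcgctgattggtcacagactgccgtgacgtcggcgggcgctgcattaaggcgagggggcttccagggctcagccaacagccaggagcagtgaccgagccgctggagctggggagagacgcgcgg
The Ptf1a window held 0 E-boxes and 1 TC-box, read as its reverse complement, the Tfap2b window 1 of each and the Lhx1 window 0 of either. The Tfap2b matches do not adjoin, and the spacing of matches was not scored in any window. Both Tfap2a windows (2 and 1 TC-boxes) lacked the E-box, and the Gad1 window held 1 of each. Pcp2 windows 1, 2 and 4 each held 1 E-box and 2 TC-boxes, and window 3 held 2 E-boxes and 0 TC-boxes. Among 32851 mouse windows of the same length, 72.3% held the E-box, 62.7% the TC-box and 44.6% both, so a match is common. Lhx5 and Foxp2 were not matched to a window.

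Lhx1 ran the other way. This LIM homeodomain gene (chr11:84517975-84525534) read 7.72, 7.76, 9.08 and 8.41 in the NEPs, against 10.44, 10.23, 10.28 and 10.12 in the GNPs and 10.46, 10.42 and 10.39 in the NSCs. Every NEP array lay below every other array of the study, although the signal was well above the array median in all groups. NEPs were lower than GNPs by a difference of -2.02 (SE 0.22, limma adjusted p = 3.46e-07) and than NSCs by -2.18 (SE 0.23), and GNPs and NSCs overlapped (-0.15, 95% interval -0.64 to 0.34).

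In the tumors Lhx1 read 9.86, 9.69, 10.25 and 10.07 in NEP tumors, against 10.27, 10.18, 10.21 and 10.17 in GNP tumors. These groups overlapped and the difference of -0.24 (95% interval -0.70 to 0.21) was not called. NEP tumors were above NEPs by 1.72 (SE 0.22, limma adjusted p = 2.26e-06), and GNP tumors minus GNPs was -0.06. The weaker probe set of Lhx1 repeated the low NEP signal, with 5.90 ± 0.75 in NEPs, 8.39 ± 0.06 in GNPs and 8.82 ± 0.04 in NSCs.

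Lhx5, the paralog of Lhx1, was highest in NEPs like Ptf1a and unlike Lhx1. The gene lies at chr5:120431886-120441457 and read 5.51, 4.80, 7.92 and 5.84 in the NEPs, against 2.76, 2.57, 2.50 and 2.81 in the GNPs and 3.21, 3.14 and 3.03 in the NSCs. All NEP arrays were above the others, and NEP array 3 was the highest. NEPs were above GNPs by 3.36 (SE 0.41, limma adjusted p = 1.89e-06) and above NSCs by 2.89 (SE 0.44), and with NEP arrays 1 and 2 alone the comparison with GNPs gave 2.50. One probe set carries Lhx5, so no second one could be set beside it.

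Lhx5 was dim in both tumor groups, with 1.71, 1.71, 1.56 and 1.54 in NEP tumors, against 1.31, 1.34, 1.55 and 1.69 in GNP tumors. These groups overlapped (0.16, 95% interval -0.71 to 1.03). NEP tumors minus NEPs was -4.39 (SE 0.41, limma adjusted p = 7.02e-08). GNP tumors minus GNPs was -1.19 (SE 0.41, limma adjusted p = 0.0236), a call that was lost without GNP array 4, GNP tumor array 1 or GNP tumor array 2 (limma adjusted p = 0.0519 to 0.0546).

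Foxp2 (chr6:14901349-15441977), a forkhead transcription factor gene found in Purkinje cells and in other neurons, differed from every gene above in being highest in the tumors. It read 7.96, 7.87, 7.67 and 7.77 in NEP tumors and 7.79, 7.73, 7.82 and 7.94 in GNP tumors, against 5.77, 5.98, 5.94 and 5.62 in NEPs, 5.45, 5.48, 5.46 and 5.08 in GNPs and 5.97, 6.59 and 6.67 in NSCs. No tumor array overlapped a progenitor or NSC array, and the tumor groups overlapped each other. The difference between the tumors was -0.00 (95% interval -0.29 to 0.28).

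Within their own title series, NEP tumors were above NSCs in Foxp2 by 1.40 and GNP tumors by 1.41 (SE 0.15 each, limma adjusted p = 9.77e-07 and 7.79e-07). Across title series, NEP tumors were above NEPs by 1.99 and GNP tumors above GNPs by 2.45 (SE 0.14 each). Among the progenitors, NEPs were above GNPs by 0.46 (SE 0.14, limma adjusted p = 0.00647) without overlap, and below NSCs by a difference of -0.59 (limma adjusted p = 0.00275) with overlap.

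Foxp2 has 6 probe sets, and all 6 were called higher in NEP tumors than in NEPs, in GNP tumors than in GNPs and in GNP tumors than in NSCs. NEP tumors against NSCs was called higher for 5 of 6. The smaller differences depended on the probe set: NEPs against GNPs was called higher for 2 of 6, and on 2 probe sets the difference was below 0 (-0.01 and -0.12). Between the tumors, 1 probe set was called higher in NEP tumors (0.51) and 1 lower (-0.44).

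**Figure D3:**
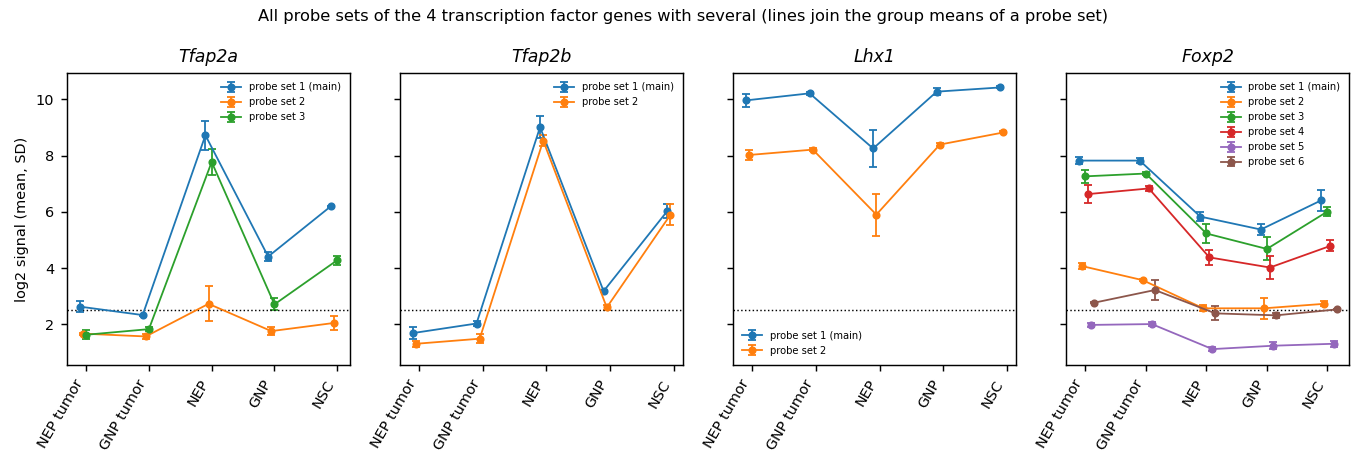
Group means with SD (vertical axis, log2 signal) for every probe set of Tfap2a, Tfap2b, Lhx1 and Foxp2, by group from left to right NEP tumor, GNP tumor, NEP, GNP and NSC; lines join the means of a probe set and the dotted line is the average array median. In NEPs the probe sets of Tfap2a and Tfap2b lie higher and those of Lhx1 lower than in GNPs and NSCs, and all 6 of Foxp2 lie higher in the tumors than in NEPs and GNPs.

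Pcp2 (chr8:3623369-3625547) encodes a Purkinje cell protein that modulates G protein signaling. It stayed close to the array median in every group. Its values were 2.98, 2.92, 3.68 and 3.18 in NEP tumors and 2.26, 2.81, 2.69 and 2.53 in GNP tumors, and 2.66, 2.86, 2.51 and 2.77 in NEPs, 2.25, 2.36, 2.25 and 2.21 in GNPs and 3.12, 3.02 and 3.27 in NSCs. NEP tumors lay above GNP tumors with no overlap, by 0.62 (SE 0.15, limma adjusted p = 0.00567), and NEPs above GNPs by 0.43 (SE 0.15, limma adjusted p = 0.0142).

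The other Pcp2 probe sets were dim in all groups. On one of them NEP tumors were also called higher than GNP tumors (0.35, limma adjusted p = 0.0118), so 2 of 3 probe sets were called, and on the other NEP tumors minus GNP tumors was -0.05 and NEPs minus GNPs -0.07. The tumor call was lost when NEP tumor arrays 1 and 2 stood alone for their group (0.38, limma adjusted p = 0.0549). Pcp2 was lower in NEPs than in NSCs (-0.43, limma adjusted p = 0.0258), a call lost without NEP array 3, NSC array 1 or NSC array 6 (limma adjusted p = 0.0556 to 0.101). GNP tumors minus GNPs was 0.30 and not called, but was called without GNP tumor array 1 (0.41, limma adjusted p = 0.0343) or with only these groups in the fit (0.30, 0.0374).

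Gad1 (chr2:70561303-70602014), which encodes the GABA-making enzyme GAD67, did not follow Ptf1a. It read 3.15, 2.72, 6.15 and 3.92 in NEPs, against 4.06, 3.73, 4.05 and 4.24 in GNPs and 2.97, 2.95 and 2.49 in NSCs. The NEP arrays overlapped both other groups, with array 3 above and arrays 1 and 2 below all GNP arrays, and the difference from GNPs was -0.03 (95% interval -1.11 to 1.05, limma adjusted p = 0.958). Without NEP array 3 it was -0.75 and called lower (limma adjusted p = 0.0344), so 1 array decides the result. The median of the differentiating neuron markers lay between 6.42 and 8.43 in NEPs, highest on array 3, against 10.10 to 10.15 in GNPs, and their part in the Gad1 result was not tested. NEPs minus NSCs was 1.19 (limma adjusted p = 0.0747) and became a call without NEP array 1 (1.46, 0.0404) or NEP array 2 (1.61, 0.0168). GNPs minus NSCs, across title series, was 1.22 without overlap (limma adjusted p = 0.0954). That difference was called with only these groups in the fit (limma adjusted p = 0.000218).

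In NEP tumors Gad1 read 3.25, 2.98, 4.17 and 4.34, against 2.25, 2.44, 2.27 and 2.42 in GNP tumors. The groups did not overlap, and the GNP tumors were dim. The difference was 1.34 (SE 0.51, limma adjusted p = 0.068) in the fit over all groups, and was called with only the tumor groups in the fit (limma adjusted p = 0.00631) or with NEP tumor arrays 3 and 4 alone (1.91, 0.0467). GNP tumors were below GNPs by a difference of -1.67 (SE 0.51, limma adjusted p = 0.0118). The second Gad1 probe set was dim in every group.

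The unequal differences can be put per gene. The NEP tumor minus GNP tumor difference less the NEP minus GNP difference was -8.19 for Ptf1a, -6.18 for Tfap2b, -4.02 for Tfap2a, -3.20 for Lhx5, 1.78 for Lhx1 and -0.47 for Foxp2 (limma adjusted p from 1.97e-15 for Ptf1a to 0.0452 for Foxp2). A shift common to both groups of a title series cancels in this contrast. The Foxp2 value is fragile: it missed the threshold without any 1 of several arrays, among them GNP array 4 (-0.37, limma adjusted p = 0.0992), NEP arrays 1, 2 and 3, GNP tumor arrays 1, 3 and 4 and NEP tumor arrays 2, 3 and 4 (limma adjusted p = 0.0529 to 0.0865), and it was 0.51 on one other probe set. The Gad1 value was 1.37 and not called, but 2.09 without NEP array 3 (limma adjusted p = 0.00035).

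The order of the group means split the genes. Ptf1a, Tfap2a, Tfap2b and Lhx5 shared the order NEP above NSC above GNP above the tumors, and neighbouring groups were separate except Ptf1a in GNPs and both tumors and Lhx5 in the tumors. For Lhx5, GNPs minus NSCs was only -0.47 and not called (limma adjusted p = 0.436). It was called with only these groups in the fit (limma adjusted p = 0.00444). Lhx1 had NSC, GNP, GNP tumor and NEP tumor overlapping each neighbour, with NEPs last and separate. Foxp2 had both tumor groups on top, Pcp2 had NEP tumor and NSC overlapping on top, and Gad1 had GNP, NEP and NEP tumor overlapping.

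Likeness was measured as the root mean square distance between the 5 group means of a pair of genes, each centred on its own average. Tfap2a and Tfap2b were the closest pair at 0.55. Next were Pcp2 and Gad1 at 0.82, Lhx1 and Pcp2 at 0.85, and Tfap2a and Lhx5, and Foxp2 and Pcp2, at 0.89. Ptf1a and Tfap2b stood at 0.98, and Ptf1a and Lhx1 at 4.07. Lhx5 stood at 2.15 from Ptf1a and at 2.36 from Lhx1. Among all genes tested, the nearest to Ptf1a were Grm3 (a metabotropic glutamate receptor, 0.78), Ednrb (an endothelin receptor, 0.95) and Col1a2 (a collagen chain, 0.97). Limch1, St6gal2 and Col5a2 lay nearest to Tfap2a (0.22 to 0.38), and St6gal2, Tnxb and Scube2 nearest to Tfap2b (0.43 to 0.46).

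Nearest to Lhx1 were Adgrl2, Nexmif and Pgm2l1 (0.08 to 0.13), and nearest to Lhx5 were Plec, Tanc2 and Lbx1 (0.17 to 0.21). Endod1, C730049O14Rik and Eif4ebp1 were nearest to Foxp2 (0.08 to 0.23), Eva1a, Pkn2 and N6amt1 to Pcp2 (0.10 to 0.14), and Chd3, Tarsl2 and Tanc1 to Gad1 (0.25 to 0.30). The distance counts 5 points per gene and grows with the size of the changes, so genes with small differences find close neighbours more easily.

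Other genes of the Ptf1a programme and of ventricular zone progenitors moved in the direction of Ptf1a among progenitors. Of 12 tested from a list of 16, 9 were called higher and 2 lower in NEPs than in GNPs, beside 29.6% and 39.9% of all genes. The median difference was 3.22, against -0.114 over all genes. The proneural gene Neurog2 averaged 8.13 ± 0.26 in NEPs, against a dim 1.90 ± 0.10 in GNPs (SD, n = 4 each), a difference of 6.23. Dll1, which encodes a Notch ligand, differed by 5.57, Neurog1 by 5.11 and Nphs1, which encodes nephrin, by 4.96. Rbpj and Tcf3, whose products pair with Ptf1a protein in its trimeric complex, were the 2 called lower.

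In NEP tumors against NEPs, 8 of these 12 genes were called lower and 0 higher, beside 32.6% and 36.2% of all genes. The median was -2.05, against 0.046 over all genes. Neurog2 differed by -6.39, Skor1, a transcriptional corepressor gene, by -5.59, Neurog1 by -5.34 and Dll1 by -5.22. NEP tumors against GNP tumors had 2 higher (Skor1 and Tcf4) and 1 lower, beside 15.5% and 8.10% of all genes. The Tcf4 call was lost in 11 of 17 alternative settings. Skor1 was at 4.96 ± 1.1 in NEP tumors, against 3.11 ± 0.16 in GNP tumors. GNP tumors against GNPs had 2 higher and 3 lower, beside 18.5% and 31.4% of all genes. The higher ones were Olig2 (3.41), which also marks the oligodendrocyte lineage, and Dll1 (0.82).

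Purkinje cell genes were mixed. Of 10 tested from a list of 15, 6 were called higher and Foxp4 lower in NEPs than in GNPs, with a median of 1.18. Of all genes, 29.6% were called higher and 39.9% lower there. Aldoc, a glycolytic gene that marks a subset of Purkinje cells and also astrocytes, differed by 7.02, Car8 by 3.81 and Dab1, the adaptor of Reelin signaling, by 3.72. Between the tumors 6 were called higher and Aldoc lower in NEP tumors than in GNP tumors, beside 15.5% and 8.10% of all genes. The median was 0.49, against 0.049 over all genes. Calb1, a calcium-binding protein gene, averaged 4.06 ± 1.4 in NEP tumors, against a dim 2.02 ± 0.43 in GNP tumors, a difference of 2.04. Pcp4, a gene of a small calmodulin-binding protein, differed by 1.61 and Car8 by 1.47, and Car8 was no longer called without NEP tumor array 4 (1.25, limma adjusted p = 0.0565) or GNP tumor array 4 (1.34, 0.0503). Aldoc, at -0.86, was no longer called without NEP tumor array 1 or 2 (limma adjusted p = 0.058 and 0.0522).

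The list medians of Purkinje genes were 4.53, 4.76, 5.79 and 5.04 on NEP tumor arrays 1 to 4, against 4.06 to 4.30 on the GNP tumor arrays. With NEP tumor arrays 3 and 4 alone, 3 Purkinje genes were called higher, and with arrays 1 and 2 alone, 5. Of all 12148 genes, 2040 and 2520 were then called in either direction. Bergmann glia and astrocyte markers had medians of 6.35, 6.32, 7.88 and 7.58 on the same 4 NEP tumor arrays, against 7.32 to 7.40 on the GNP tumor arrays; microglia sums were 8.62 to 9.87 in NEP tumors, against 10.22 to 10.28 in GNP tumors. Their part in these results was not tested.

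Genes of GABA and glycine transmission were called higher in NEPs than in GNPs for 5 of 5 tested, beside 29.6% of all genes. Their median was 2.84. The list has 11 genes, 10 of them measured, and the other 5 did not pass the filter. Of the 10 measured, 5 were above the array median on all NEP arrays, while in each other group 6 were above it on none. The filter can thus favour genes that are high in NEPs, and the count of 5 of 5 is no independent support. Those named here do not make GABA: Slc6a11 (5.82) encodes a GABA transporter found in astrocytes, Abat (2.95) an enzyme that degrades GABA, Npy (2.84) a neuropeptide and Calb2 (2.29) a calcium-binding protein. Gad2, the second GABA-synthesis gene, averaged 1.48 ± 0.12 in NEPs, against 1.54 ± 0.10 in GNPs, and Slc32a1, the vesicular transporter of GABA and glycine, averaged 2.10 ± 0.07 in NEPs, against 2.15 ± 0.10 in GNPs, dim like Slc6a5 in all 5 groups. In NEP tumors against NEPs, 4 of 5 were called lower, led by Abat (-3.60), beside 32.6% of all genes. No forebrain GABAergic gene was tested, since all 7 measured were under the array median on every array.

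Rhombic lip and glutamatergic genes ran against Ptf1a among progenitors. Of 15 tested from a list of 18, 12 were called lower in NEPs than in GNPs and Pou4f1 higher, with a median of -1.49. Of all genes, 39.9% were called lower and 29.6% higher there. Barhl1, a homeobox gene of granule neuron progenitors, averaged 3.63 ± 1.6 in NEPs, against 8.75 ± 0.14 in GNPs, a difference of -5.12. Atoh1 differed by -4.90, Slc17a6, a vesicular glutamate transporter gene, by -4.41 and Barhl2 by -4.08. In NEP tumors against NEPs, 10 were called higher and 2 lower, beside 36.2% and 32.6% of all genes. The median was 1.85, and the largest were Atoh1 (6.52), Barhl1 (5.77), Lhx2 (5.75) and Slc17a6 (4.94). NEP tumors against GNP tumors had 2 higher, Pax6 (0.92) and Gabra6 (0.70), and 0 lower, with a median of 0.08. Of all genes, 15.5% were called higher and 8.10% lower there.

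**Figure D4:**
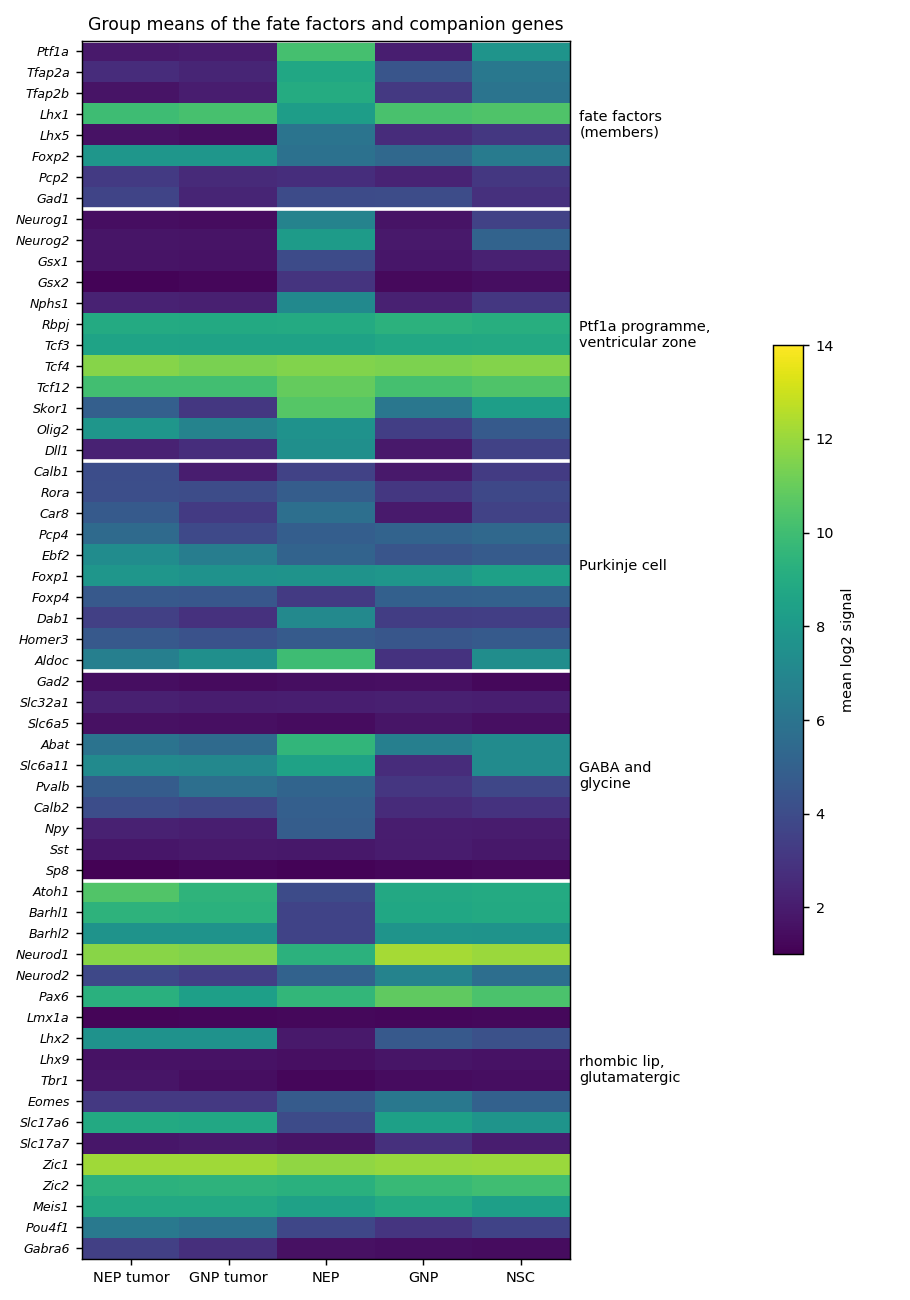
Mean log2 signal (color scale) of the 8 measured fate factors and of the listed companion genes (rows) in NEP tumor, GNP tumor, NEP, GNP and NSC arrays (columns, left to right). In tumors Atoh1 and Barhl1 have high signals and Ptf1a, Neurog2 and Dll1 low ones, while in NEPs Ptf1a, Neurog2 and Dll1 are high.

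Markers of other cell types also differed between NEPs and GNPs and within the NEPs. Summed signals of 15 microglia and macrophage genes were 13.28, 13.30, 8.79 and 6.38 (log2 of the sum) on NEP arrays 1 to 4, against 5.88 to 6.02 in GNPs. Those of 15 pericyte, fibroblast and meningeal genes were 13.87, 13.92, 11.13 and 10.42 in NEPs, against 6.45 to 7.51 in GNPs, and those of 12 Bergmann glia and astrocyte genes 14.37, 14.50, 14.33 and 14.63 in NEPs, against 10.53 to 10.66 in GNPs. On NEP array 4, 5 of the 15 microglia genes were above the array median, against 15 of 15 on NEP arrays 1 and 2. In NSCs the pericyte, fibroblast and meningeal sums were 12.23 to 12.26 and the Bergmann glia sums 12.49 to 12.54, and their part in the comparisons with NSCs was not tested. Rhombic lip medians were 2.59, 2.34, 5.76 and 4.59 on NEP arrays 1 to 4, against 7.13 to 7.45 in GNPs.

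With NEP arrays 3 and 4 alone, the difference from GNPs was 8.25 for Ptf1a, 6.13 for Tfap2b, 4.61 for Tfap2a, 4.22 for Lhx5 and -1.52 for Lhx1, all called by limma. With NEP arrays 1 and 2 alone it was 7.89 for Ptf1a, 5.55 for Tfap2b, 4.01 for Tfap2a, 2.50 for Lhx5 and -2.53 for Lhx1, again all called. Gad1 differed by -1.08 (limma adjusted p = 0.00332) with arrays 1 and 2 alone and by 1.02 (0.06) with arrays 3 and 4 alone. The part of these other cell types in the NEP results was not tested.

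**Figure D5:**
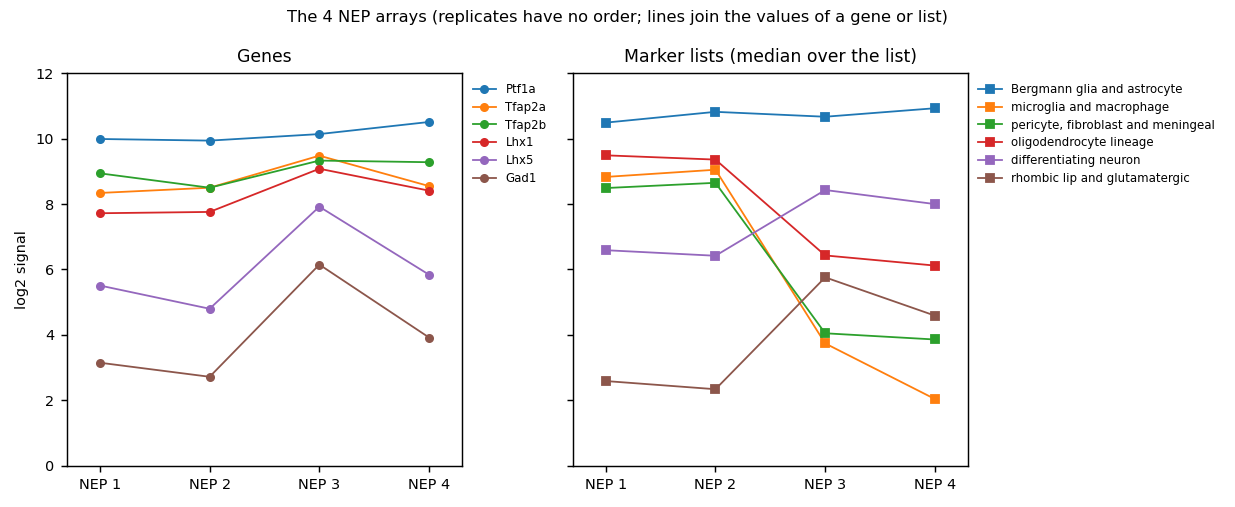
Log2 signal (vertical axis) on the 4 NEP arrays (horizontal axis) of 6 fate factors (left panel) and the medians of 6 marker lists (right panel). Ptf1a stays between 9.94 and 10.51 while the microglia median is 3.74 on array 3 and 2.04 on array 4; Gad1 and Lhx5 are highest on array 3.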

How the data were processed

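RNA from NEP tumors, GNP tumors, NEPs, GNPs and NSCs was measured on 19 arrays, labelled with an Ambion kit per the labels' protocols. The deposited log2 signals are those the authors made with RMA (Affymetrix Expression Console), as given per the submitters' processing notes, with neither version nor log base stated. The base was checked on hybridization controls of known spacing. RMA normalizes the arrays to each other, and every array mean is 3.785, so a change of total RNA is removed. The array medians still ran from 2.44 to 2.57, so the deposited values do not share one exact distribution. The number of arrays limits the precision.

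Of 45101 probe sets, 64 are controls, 34945 have 1 gene symbol, 932 have several and 9160 none; those with 1 symbol were used. The brightest probe set by mean stood for a gene, which was tested if at or above the array median on at least 3 arrays. One linear model over the 5 groups was fitted with limma 3.58.1 (R 4.3.3), with empirical Bayes variances and Benjamini-Hochberg adjustment over 12148 genes, and was tested on simulated data. Figures used Python 3.11.15 and matplotlib 3.10.9.

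The members and lists were chosen with earlier results of these data known. The text names every measured member, and from each companion list up to 4 called genes with the largest differences per comparison, the 3 genes most like each member, and the genes behind the labels. Rbpj, Tcf3, Foxp4, Pou4f1, Gad2, Slc32a1 and Slc6a5 fall outside it and were chosen after their values were seen. Alternatives covered the probe set, the filter, normalization, the groups in the fit, a replicate block and each array left out. Whether arrays with the same number are paired was checked by the correlation of their deviations from the group means, which ran from -0.158 to 0.071.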

Additional observations from a re-analysis of the deposited data

Results flagged for a closer look

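Single arrays stood apart in 2 of 32 groups of 4 arrays examined, where chance alone flags about 1 in 20 groups. Ptf1a read 2.15 on GNP array 2, with the nearest GNP array at 2.05, and both values are dim. Foxp2 read 5.08 on GNP array 4, with the nearest GNP array at 5.45.

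The difference between NEP tumors and GNP tumors was unequal to that between NEPs and GNPs, by limma's test of the interaction itself, for 6 of the 8 measured genes. Of all genes tested, 25.2% had a lower and 36.7% a higher tumor difference, so such a call is common. Tumor difference minus progenitor difference was -8.19 for Ptf1a, -6.18 for Tfap2b, -4.02 for Tfap2a, -3.20 for Lhx5, 1.78 for Lhx1 and -0.47 for Foxp2. The Foxp2 value missed the threshold when 1 of several arrays was left out.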

How the results depend on the processing

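Over 72 results of the measured genes, 1336 alternatives were run. Of these, 1257 stayed on the same side of the threshold, 47 lost a call, 22 gained one and 10 reversed direction with a call in either fit. A change of direction between uncalled differences was counted among the 1257. For 59 results of companion genes, 1005 alternatives gave 978 on the same side and 27 lost calls. All 27 were in NEP tumors against GNP tumors, where Tcf4 lost its call in 11 of 17 alternatives and Abat in 9 of 17. The number of the 8 genes called ranged from 5 to 8 in NEPs against GNPs, 5 to 8 in NEP tumors against NEPs and 5 to 7 for the interaction. In NEPs against GNPs and in NEP tumors against NEPs, the 5 came from the 75th percentile filter, which tested 5 genes and called all. For the interaction that filter also called 5 of 5, while without a filter on dim genes 5 of 8 were called. Between NEP tumors and GNP tumors, the count of 1, Pcp2, became 4 with only the groups compared in the fit. It became 2 with NEP tumor arrays 3 and 4 only and 0 with NEP tumor arrays 1 and 2 only. It was 0 with the mean of all probe sets (7 genes tested) and with a filter at the 75th percentile (5 genes tested). Pcp2 did not pass the filter in either of these settings, so its call was not tested there. GNP tumors against GNPs had 5 called, and 3 under the 75th percentile filter, which tested 5 of the 8 genes. With NEP arrays 1 and 2 only, Gad1 in NEP tumors against NEPs reversed to 0.75 (limma adjusted p = 0.0305).

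Other reversals came with dim or weak probe sets, and the cause was not tested. On one Foxp2 probe set, NEPs minus GNPs was -0.01, the tumor difference 0.51 and the interaction 0.51, and on another NEPs minus GNPs was -0.12 and the interaction 0.09. On one Pcp2 probe set, NEPs minus GNPs was -0.07, GNPs minus NSCs 0.00, NEP tumors minus GNP tumors -0.05 and GNP tumors minus NSCs 0.09.

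With a replicate block, the counts of called genes stayed at 7 for NEPs against GNPs, 1 for the tumors and 6 for the interaction. Same-number correlations ran from -0.158 to 0.071, and 2 of the 8 NEP and NEP tumor arrays correlated best with their own number, so the numbers were not taken to pair the arrays. The title numbers of GNP and NEP arrays alternate, however, and array 4 had the highest poly-A control mean in both groups (9.269 and 9.321). Whether same-number arrays were handled together is not known. Signal near the array median limits Pcp2, and Gad1 in some groups.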
